A study of Mus musculus with 3 samples.

Results

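The genes described here are the odorant receptor (Olfr) and vomeronasal receptor (Vmn) genes with an accessible chromatin peak of dopaminergic neurons (DNs) at most 20 kb away. They were chosen by the peaks themselves: each Vmn and Olfr gene of the source table of the compartment comparison was extended by 20 kb on each side, and kept where at least 1 peak overlapped the extended gene. This selected 111 of 1385 receptor genes, and 138 of the 55326 peaks lay near them. The presence of these peaks is therefore a description and not a finding, and what follows concerns where the peaks lay, which other genes they lay beside and what their sequence was.

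The peaks came from single-nucleus ATAC-seq (snATAC-seq), which maps the chromatin that a transposase can enter in single isolated nuclei. Nuclei were taken from the midbrain ventral tegmental area (VTA) of male C57Bl/6Nl wild-type mice. Those of replicate 1 were 7 weeks old and those of replicate 2 were 9 weeks old. The authors chose the DN cluster by gene activity scores, including that of Th, and called peaks from both libraries together. The list holds positions only, each peak 500 bp wide on mm10, with no height, score or count and no separate list per replicate, so no spread between replicates and no p-value can be given. The sample of mouse embryonic stem (mES) cells was not analysed here.

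Each Olfr gene encodes a G protein-coupled receptor for odorants, and each olfactory sensory neuron of the nose uses a single allele out of the whole repertoire. Vmn1r and Vmn2r genes encode receptors of the vomeronasal organ, which detects pheromones and related cues. Vmn1r receptors act in neurons that use the G protein subunit encoded by Gnai2, and Vmn2r receptors in neurons that use that of Gnao1. Receptor genes of these families stand in long tandem clusters, poor in other genes and rich in A and T bases, which are packed as heterochromatin in most tissues.

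Sequences are shown of the peaks that lay in a receptor gene, by the gene limits used for the selection, or at its annotated start. These touch the receptor genes themselves. Sequences of 3 peaks in gaps with receptor genes only are also shown, because they differ widely in base composition. Peaks of Olfr225 and Olfr65 are not shown. The sequences are stretches of the mm10 plus strand without annotated untranslated bases, written 5′ to 3′, with each CG dinucleotide in capitals.
Olfr94 peak (chr17:37197323-37197522): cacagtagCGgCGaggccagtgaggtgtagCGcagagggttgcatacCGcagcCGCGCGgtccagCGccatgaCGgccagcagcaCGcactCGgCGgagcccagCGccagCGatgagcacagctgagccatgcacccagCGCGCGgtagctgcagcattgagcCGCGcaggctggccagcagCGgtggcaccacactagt
Olfr95 peak (chr17:37211543-37211742): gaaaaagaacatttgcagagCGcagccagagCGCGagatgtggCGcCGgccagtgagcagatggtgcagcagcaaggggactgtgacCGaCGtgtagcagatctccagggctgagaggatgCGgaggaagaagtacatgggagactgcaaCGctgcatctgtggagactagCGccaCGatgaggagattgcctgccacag
Vmn1r4 and Nt5c3 peak (chr6:56923710-56923809): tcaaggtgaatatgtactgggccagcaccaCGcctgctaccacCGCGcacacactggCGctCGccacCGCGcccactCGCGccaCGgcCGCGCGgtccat
Olfr145 peak (chr9:37891035-37891234): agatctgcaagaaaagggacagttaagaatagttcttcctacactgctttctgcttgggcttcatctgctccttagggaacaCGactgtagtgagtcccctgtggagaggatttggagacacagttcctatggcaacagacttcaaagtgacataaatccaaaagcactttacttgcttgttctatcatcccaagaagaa
Vmn1r44 start peak (chr6:89883884-89884083): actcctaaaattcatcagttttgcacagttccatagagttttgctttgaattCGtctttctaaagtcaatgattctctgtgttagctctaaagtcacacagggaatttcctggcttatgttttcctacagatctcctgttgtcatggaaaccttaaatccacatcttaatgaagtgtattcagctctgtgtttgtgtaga
Olfr1350 start peak (chr7:6564641-6564840): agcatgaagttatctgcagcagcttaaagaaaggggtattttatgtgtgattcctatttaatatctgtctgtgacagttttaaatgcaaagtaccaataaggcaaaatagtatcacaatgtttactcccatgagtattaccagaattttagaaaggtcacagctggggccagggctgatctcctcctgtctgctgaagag
Olfr545 to Olfr547 peak (chr7:102513162-102513361): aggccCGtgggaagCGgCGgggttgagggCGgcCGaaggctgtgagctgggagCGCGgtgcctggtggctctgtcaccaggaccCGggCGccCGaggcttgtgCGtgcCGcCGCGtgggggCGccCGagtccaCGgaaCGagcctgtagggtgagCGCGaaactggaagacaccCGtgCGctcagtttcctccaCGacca
Vmn2r86 to Vmn2r87 peak (chr10:130470295-130470494): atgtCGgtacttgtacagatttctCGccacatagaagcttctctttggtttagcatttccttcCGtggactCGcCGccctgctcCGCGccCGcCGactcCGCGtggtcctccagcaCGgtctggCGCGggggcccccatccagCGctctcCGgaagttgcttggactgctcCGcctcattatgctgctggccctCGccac
Olfr967 to Olfr968 peak (chr9:39756502-39756701): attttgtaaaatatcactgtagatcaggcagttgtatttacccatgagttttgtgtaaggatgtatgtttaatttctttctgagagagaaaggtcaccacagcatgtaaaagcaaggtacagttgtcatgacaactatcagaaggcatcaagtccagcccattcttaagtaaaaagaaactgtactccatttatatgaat

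The Olfr94 stretch lay wholly in the coding sequence of that gene and held 20 CG dinucleotides in 200 bases, and the Olfr95 stretch was likewise all coding and held 11. The Vmn1r4 stretch of 100 bases was coding sequence of Nt5c3, a pyrimidine nucleotidase gene whose start lay 15 bp from the peak centre, and held 13. The stretches at Olfr145 and Vmn1r44 held 1 each, and those at Olfr1350 and beside Olfr967 held none. The peak that gave the stretch between Vmn2r86 and Vmn2r87 overlapped Gm18755, an annotated processed pseudogene. The stretch between Olfr545 and Olfr547 overlapped no annotated gene.

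Marker genes were examined for a peak between 2 kb upstream and the end of the gene, which 70.0% of the other protein-coding genes had. All 11 DN markers examined had one. Th, the rate-limiting enzyme of dopamine synthesis, had 10 peaks, and Slc6a3, the dopamine transporter, had 3. The authors chose the DN cluster by Th and checked it with markers including Slc6a3, Foxa1, Foxa2 and Lmx1b. Peaks at these genes are therefore not independent of that choice. Of other cell types, 2 of 6 oligodendrocyte, 2 of 4 astrocyte and 2 of 4 microglial markers had a peak, Mbp with 6 and Cx3cr1 with 9, and the part of other cells in the list was not tested. Of 4 markers of olfactory and vomeronasal sensory neurons, Gnal had 7 peaks, and Omp, Cnga2 and Trpc2 had none.

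Receptor genes seldom had a peak nearby. The 111 genes were 8.01% of all receptor genes, where 81.7% of the other protein-coding genes, and 63.2% of those no longer than 5 kb, had a peak by the same rule. Among Olfr genes, 96 of 1095 (8.77%) were selected. Among Vmn genes the number was 15 of 290 (5.17%), with 11 of 185 Vmn1r genes (5.95%) and 4 of 105 Vmn2r genes (3.81%). The difference in share between families was not tested, since neighbouring genes share peaks and are not independent.

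The distance at which receptor genes met their nearest peak set them apart over a long range. At 50 kb, 17.9% of receptor genes had a peak, and 74.2% of the other short genes. At 200 kb the shares were 46.5% and 87.9%. Olfr genes had the higher share at 50 kb, with 19.4% against 12.4% of Vmn genes, and Vmn genes at 200 kb, with 49.3% against 45.8%. The nearest peak lay at a median of 9.24 kb from the selected genes, by construction, and at a median of 268.9 kb from the other receptor genes, with the most distant at 1468 kb. Just inside the limit of 20 kb lay Olfr150 (18597 bp), Olfr287 (19645 bp) and Olfr12 (19939 bp), and just outside it Olfr220 (20073 bp), Olfr726 (20804 bp) and Olfr160 (20909 bp).

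**Figure D1:**
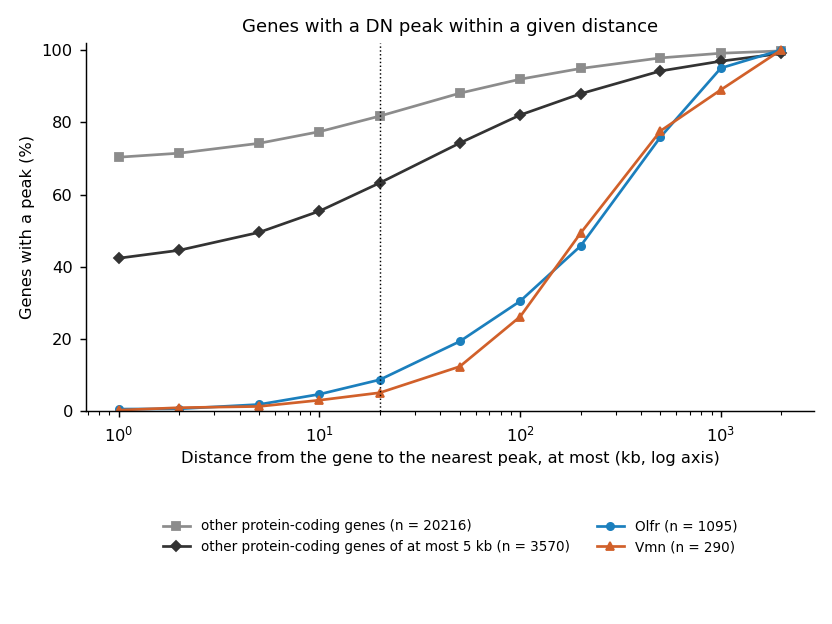
Share of genes with a DN peak (y axis, percent) within a given distance of the gene (x axis, kb, log scale), for Olfr genes, Vmn genes, all other protein-coding genes and those of at most 5 kb. The dotted line marks the 20 kb of the selection; there the Olfr and Vmn curves stood at 8.77% and 5.17%, and the short genes at 63.2%.

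A larger share of receptor genes was selected close to a gene of another kind than far from one. The nearest protein-coding gene of another kind lay at a median of 21.2 kb from the selected genes (quartiles 13.8 and 82.0 kb), and at a median of 151.5 kb from the other receptor genes (quartiles 67.6 and 305.2 kb). Of the 48 receptor genes with such a neighbour within 10 kb, 22 (45.8%) were selected, and of the 70 with one between 10 and 20 kb, 31 (44.3%). The share dropped to 10.8% (21 of 194) from 20 to 50 kb and to 5.79% (14 of 242) from 50 to 100 kb. It was 4.59% (14 of 305) from 100 to 200 kb and 1.71% (9 of 526) beyond that. Even beside another gene, the share thus stayed below the 63.2% of short genes in general.

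Place in the cluster showed a related pattern. Receptor genes were joined into 65 clusters by gaps of at most 1 Mb, and 32 of these clusters held a selected gene. Of the 14 clusters of a single gene, 2 did, with Vmn1r1 and Olfr1402. The outermost gene on either side of a cluster was selected in 30 of 116 cases (25.9%) and the next gene inwards in 7 of 86 (8.14%). The share did not fall steadily inwards, since it was 23 of 207 (11.1%) for positions 3 to 5 and 7.42% (19 genes) for positions 6 to 10. It was 15 of 290 (5.17%) for positions 11 to 20 and 17 of 430 (3.95%) for genes more than 20 places from the nearer end. With the outer 2 genes on each side taken as the edge, 37 of 202 edge genes (18.3%) and 74 of 1183 inner genes (6.26%) were selected, so that 33.3% of the selected genes were edge genes.

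**Figure D2:**
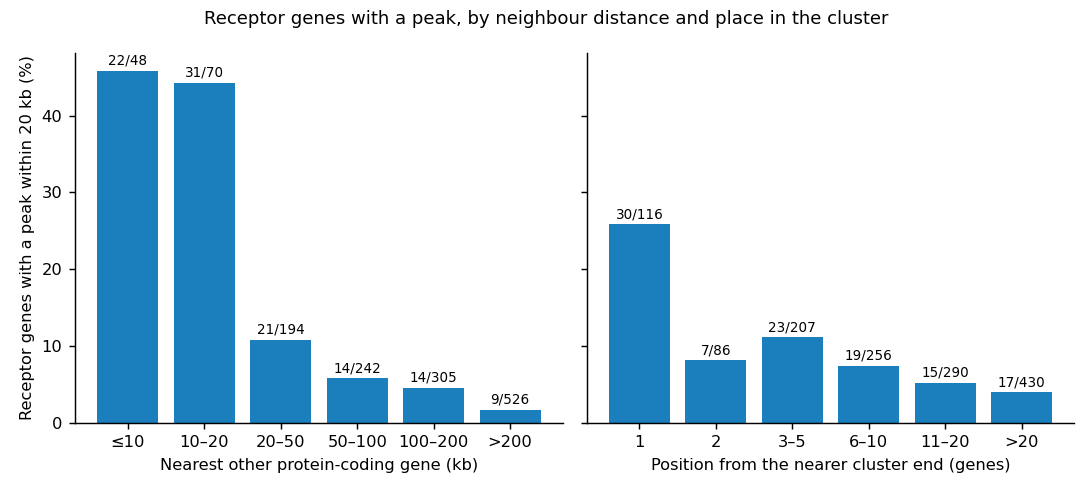
Share of receptor genes with a peak within 20 kb (y axis, percent), by distance to the nearest other protein-coding gene (left, kb) and by position counted from the nearer cluster end (right, genes). Numbers above bars are selected genes over all receptor genes in the bin; the left bars fall from 22 of 48 to 9 of 526, and the outermost genes stand above all other positions with 30 of 116.

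The gap between edge and inner genes lay mainly among genes close to another gene. With another gene within 20 kb, 25 of 45 edge genes (55.6%) and 28 of 73 inner genes (38.4%) were selected. From 20 to 100 kb the shares were close, at 8.70% (10 of 115) and 7.79% (25 of 321), and beyond 100 kb they were 4.76% (2 of 42) and 2.66% (21 of 789). These are counts of neighbouring genes that share peaks, and the differences were not tested.

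The compartment letters that accompany the gene positions, A for open and B for closed chromatin, gave a further description. They came from genome architecture mapping (GAM), another assay, of other animals and, for mES cells, from public data, so that replicate 1 of the letters is not the first snATAC-seq library. Of the receptor genes lettered A in DNs (GAM replicate 1), 41 of 235 were selected, and of those lettered B, 70 of 1150 (6.09%). For Olfr genes the counts were 39 of 214 and 57 of 881, and for Vmn genes 2 of 21 and 13 of 269. The order held among genes with another gene within 20 kb, with 24 of 47 A genes (51.1%) against 29 of 71 B genes (40.8%), and among genes farther than 100 kb from any, with 5 of 77 (6.49%) against 18 of 754 (2.39%). By the letters of hippocampal pyramidal glutamatergic neurons (PGNs), 67 of 359 A genes (18.7%) and 44 of 1026 B genes (4.29%) were selected. By those of oligodendroglia, the counts were 37 of 176 and 74 of 1209 (6.12%). By those of mES cells, they lay closer together, at 52 of 563 (9.24%) and 59 of 822 (7.18%).

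The 138 peaks divided by annotation into several kinds. The centre of 43 (31.2%) lay within 1 kb of the start of another protein-coding gene, beside 30.1% of all peaks. A further 6 lay in exons and 5 in introns of such genes, and each peak was counted under the first kind it met in the order given here. Of the rest, the centre of 4 lay within 1 kb of an annotated receptor gene start. That of 14 lay in an annotated receptor gene or receptor pseudogene, whose annotated limits often reach beyond those used for the selection. The other 66 were called intergenic, by the centre and without regard to noncoding genes, other pseudogenes and read-through genes. Some of the 66 overlapped such genes, and the Olfr279 peak farthest from that gene overlapped Kansl2 away from its centre. The Vmn1r4 peak, whose centre lay 75 bp from the annotated start of Vmn1r4, was counted among the 43. Overall 76 peaks were nearer to a gene of another kind than to a receptor gene and 61 were nearer to a receptor gene. The median distance was 3.59 kb to the nearest other gene and 9.40 kb to the nearest receptor gene. The nearest other genes numbered 70, and 39 peaks had none within 20 kb, 23 none within 50 kb and 13 none within 100 kb. Relative to the strand of the nearest receptor gene, 44 peaks lay upstream, 89 downstream and 5 overlapped the gene. Counted by gene, the sides were closer: the nearest peak lay upstream of 46 of the 111 selected genes, downstream of 60 and inside 5.

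**Figure D3:**
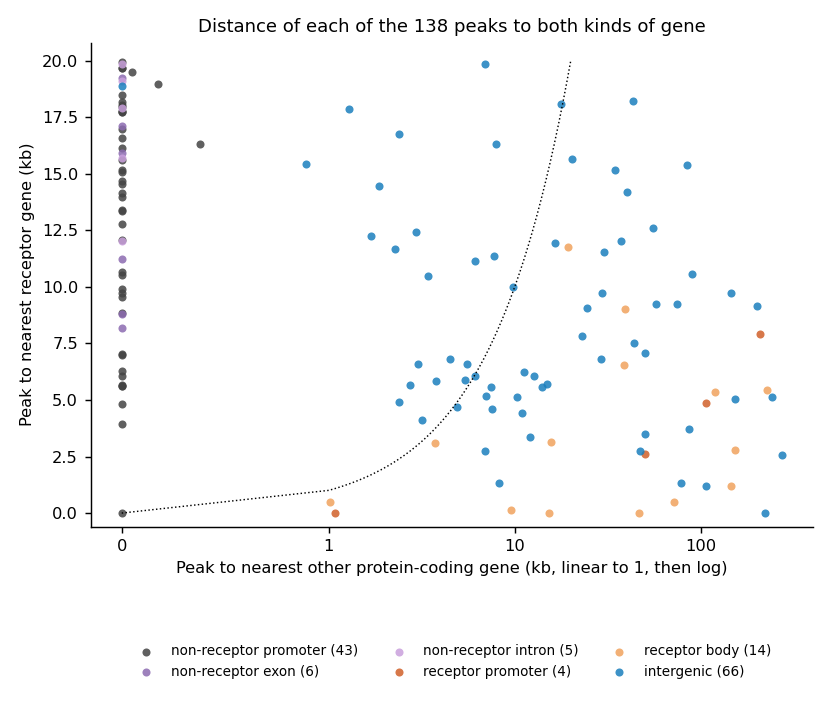
Distance of each of the 138 peaks to the nearest other protein-coding gene (x axis, kb, linear up to 1 and log beyond) and to the nearest receptor gene (y axis, kb), coloured by annotation. Points right of and below the dotted line of equal distance were nearer to a receptor gene; the column at 0 holds the 52 peaks that overlapped another gene, and 13 points lie beyond 100 kb.

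By the limits used for the selection, 5 of the 138 peaks overlapped a receptor gene. Further peaks lay inside receptor genes by their annotated limits only, as counted above. The Olfr94 peak (chr17:37197173-37197672) lay in the body of that gene, with 67.6% G and C bases and 47 CG dinucleotides in its 500 bp, and 1078 bp from Ubd, which encodes the ubiquitin-like protein ubiquitin D. The Olfr95 peak (chr17:37211393-37211892) had 59.8% G and C bases and 26 CG dinucleotides and lay 15298 bp from Ubd. Both were thus rich in G and C bases compared with their surroundings, which held 43.7% and 42.3% over the 20 kb around the peak centre.

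The Vmn1r4 peak (chr6:56923698-56924197) stood at the first gene of a cluster of 28 Vmn1r genes and coincided with the start of Nt5c3, and it held 63.6% G and C bases, against 42.4% around it, and 49 CG dinucleotides. Its centre lay 75 bp from the annotated start of Vmn1r4. The Olfr145 peak (chr9:37890885-37891384) was AT-rich, with 40.0% G and C bases, in the sixth gene from the end of a cluster of 95, and 221650 bp from Panx3, a gap junction-related channel gene. It lay in Olfr145 by the limits used for the selection only. In the annotation the gene starts 5590 bp from the peak centre, and the peak is among the 66 called intergenic. The Olfr225 peak (chr11:59614032-59614531) overlapped the end of the last gene of a cluster of 24. Olfr225 is annotated as a polymorphic pseudogene, which can be intact in some strains. Its peak lay 46774 bp from Mprip, which encodes a myosin phosphatase-binding protein.

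The centres of 5 peaks lay within 1 kb of an annotated receptor gene start. The peaks of Olfr94 (589 bp) and Vmn1r4 (75 bp), the latter also at the start of Nt5c3, were given above. The Olfr65 peak centre lay 28 bp from the annotated start and the Olfr1350 peak centre 32 bp, and that of Vmn1r44 323 bp from it. These last 3 were AT-rich, with 39.6%, 44.4% and 39.8% G and C bases, held 2, 1 and 2 CG dinucleotides in 500 bp, and lay between receptor genes with no other gene in the same gap. The start peak of Olfr65 lay 49994 bp from the nearest other gene, that of Olfr1350 106146 bp from Zim1, an imprinted zinc finger gene, and that of Vmn1r44 208205 bp from Txnrd3, a thioredoxin reductase gene. Since the limits used for selection left out upstream exons, these peaks counted as 2633, 4870 and 7911 bp upstream of the gene.

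Of the 80 peaks between receptor genes of a cluster, 31 lay in a gap with no other protein-coding gene. By annotation, 3 of the 31 lay at a receptor gene start, 5 in a receptor gene or receptor pseudogene, and 23 were intergenic. The 5 were the peaks beside Olfr1387, Olfr1382, Vmn1r192, Olfr571 and Olfr98. Their gaps and distances below follow the limits used for the selection. These 31 peaks came from 16 clusters and gaps of 11.9 to 58.8 kb. Their distance to the nearest other gene ran from 7.46 to 272.1 kb with a median of 72.2 kb. They include the peak of the whole set that lay farthest from another protein-coding gene, and are described next by chromosome.

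The chromosome 9 cluster of 95 Olfr genes, from Olfr160 to Olfr986, held 14 selected genes, of which 11 stood in the stretch from Olfr44 to Olfr968. Within it lay 8 peaks, and 6 of these fell in gaps with receptor genes only, beside Olfr957 (1348 bp), Olfr958 (6833 bp), Olfr960 (9728 bp), Olfr961 (7093 bp), Olfr963 (9235 bp) and Olfr967 (5032 bp). The other 2 lay at the start of AW551984, the only other protein-coding gene there, 887 and 99 bp from its start. From this gene the peaks in receptor gaps stood 29195 to 151949 bp away. The gene nearest to the end of the stretch, Olfr968, was selected through the peak beside Olfr967. Elsewhere in the cluster lay a peak 9720 bp downstream of Olfr876, that of Olfr145, and, past the last gene Olfr986, a peak at the start of Zfp202, a zinc finger gene, 3946 bp away.

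**Figure D4:**
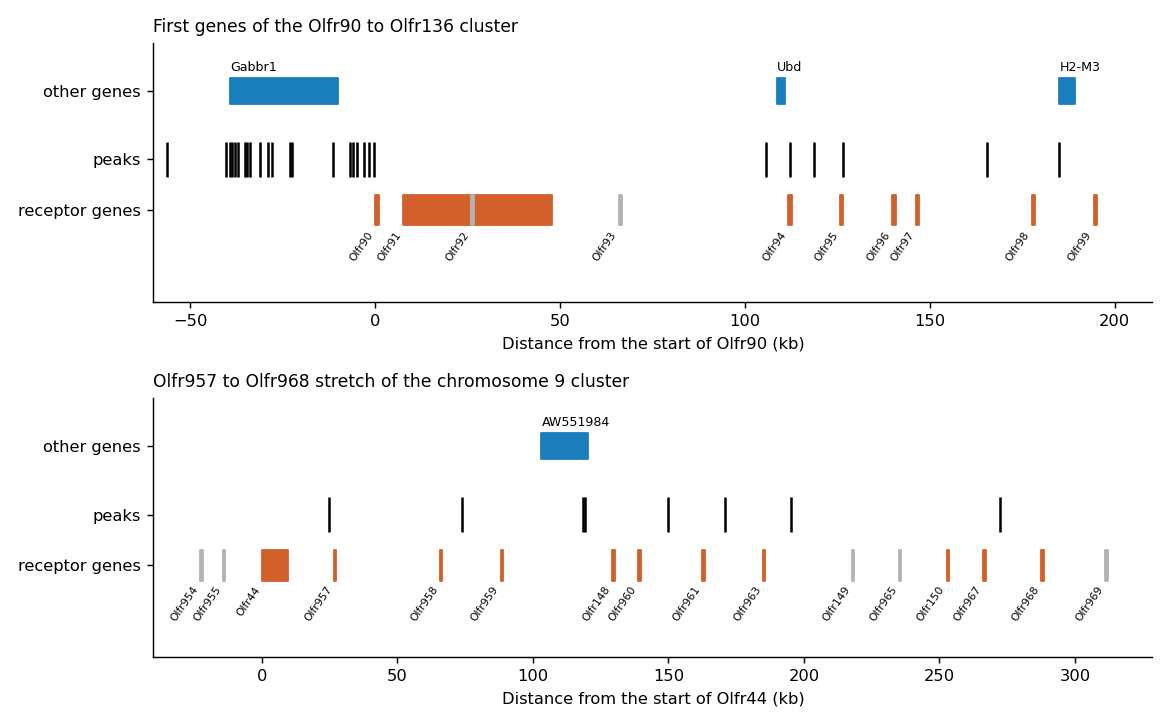
Receptor genes (orange where selected, grey where not), peaks (black ticks) and other protein-coding genes (blue) along 2 clusters, as distance in kb from the start of Olfr90 (top) and of Olfr44 (bottom). At the top, peaks crowd over Gabbr1 and the gap before Olfr90; at the bottom, 2 peaks stand at AW551984 and 6 single peaks stand in gaps between receptor genes.

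On chromosome 7, the cluster of 124 Olfr genes from Olfr543 to Olfr692 held 15 selected genes. Its peaks without another gene in the gap lay beside Olfr545 (12027 and 18239 bp upstream), Olfr571 (5463 bp), Olfr65 and Olfr685 (9170 bp). The farther peak beside Olfr545 (chr7:102513012-102513511) had 63.4% G and C bases and 47 CG dinucleotides, the composition of a CpG island, although it overlapped no annotated gene. Its neighbour had 52.8%, and both were nearest to Rrm1, a ribonucleotide reductase subunit gene, at 43241 and 37029 bp. Those at Olfr571 and Olfr685 had 38.2% and 39.8%, and lay 227973 bp from Trim68 and 200020 bp from Fam160a2. Through single peaks, Olfr570, Olfr571 and Olfr572 were selected together, as were Olfr64, Olfr65 and Olfr631.

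On chromosome 6, a cluster of 21 Olfr genes, from Olfr459 to Olfr47, had such peaks 7504 bp upstream of Olfr38, nearest to Tcaf1 at 43963 bp, and 3713 bp downstream of Olfr13, nearest to Arhgef5 at 86450 bp. Among Vmn genes of this chromosome, peaks of this kind lay 15148 bp upstream of Vmn1r21, at Vmn1r44, and 3496 bp downstream of Vmn2r19. The last stood 50163 bp from Clec4e, a C-type lectin gene, and 465259 bp from the next peak. Vmn1r43 was selected through the peak of Vmn1r44.

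On chromosome 11, a cluster of 19 Olfr genes had 1 peak 2772 bp upstream of Olfr1387 and 1 peak 481 bp downstream of Olfr1382, by which Olfr1386, Olfr1388, Olfr1381 and Olfr1383 were also selected. The nearest other gene of both, Flt4, a receptor for vascular endothelial growth factors, lay 152354 and 72161 bp away. Only 45.0% of the 32-base words of the Olfr1382 peak occurred once in the genome, the lowest share of the 138 peaks. A separate cluster of 5 genes had a peak 7844 bp downstream of Olfr54, 22969 bp from Zfp354a. On chromosome 13, the peaks beside Vmn1r192 (1206 bp) and Vmn1r195 (5119 bp) lay 145578 and 240847 bp from Hist1h2bj, a histone gene, and served 4 Vmn1r genes.

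The remaining peaks of this kind were spread over 6 chromosomes. On chromosome 1 a peak lay 2723 bp upstream of Olfr1414. On chromosome 10 the peak 1177 bp downstream of Vmn2r87 (chr10:130470145-130470644) overlapped the processed pseudogene Gm18755. It held 41 CG dinucleotides and 58.0% G and C bases, against 39.5% in its surroundings, and 74.2% of its words were unique. Its nearest other protein-coding gene was Tespa1, 106034 bp away. On chromosome 15 the peaks upstream of Olfr283 (10560 bp) and Olfr282 (12585 bp) lay in the same gap, 90144 and 55515 bp from Lalba, the milk protein alpha-lactalbumin. On chromosome 17 peaks lay upstream of Olfr94 (5593 bp) and downstream of Olfr98 (11744 bp). On chromosome 4 a peak lay 11552 bp upstream of Olfr270, nearest to Nipsnap3a at 30195 bp. On chromosome 2, the cluster of 222 genes had 3 selected genes, and its peak 2577 bp downstream of Olfr1113 was the farthest of the 138 from another protein-coding gene, 272137 bp from Pramel7. It lay 308900 bp from the next peak. This peak held no CG dinucleotide.

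The other 49 peaks between receptor genes shared the gap with at least 1 other protein-coding gene, and 25 of them lay at the start of such a gene. These gaps were 15838 to 741291 bp long. The cluster on chromosome 14 of 38 receptor genes held 16 of these peaks. Olfr750 had 9, the most of any receptor gene, of which 4 lay downstream, 5542 to 7550 bp from Rnase12, and 5 upstream, at and beside Rnase4 and Ang, which encode secreted ribonucleases. Olfr221 had 6 peaks. Of these, 5 lay at or near Zfp219, a zinc finger gene, and Tmem253, and the sixth lay on its other side, 24444 bp from Zfp219. Olfr1513 had a peak 10006 bp downstream, at about the same distance (9836 bp) from Sall2, a zinc finger transcription factor gene.

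Histone and zinc finger genes were nearest to most of the peaks of this kind in the chromosome 13 cluster, which mixed 12 Olfr and 35 Vmn1r genes. Olfr1359 had 5 peaks. Of these, 3 lay at the starts of the histone genes Hist1h2ai, Hist1h3h and Hist1h2bm, and 63.1% to 75.5% of their words were unique. The other 2 lay 5403 and 4489 bp from Hist1h2bl. Olfr1367 had a peak 3 bp from the start of Zscan12 and another 6951 bp from Gpx6, a glutathione peroxidase gene, and Olfr1366 one 6 bp from that of Zkscan8. Olfr1368 had 2 peaks toward Trim27, at 20223 and 17807 bp from it.

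The remaining clusters had fewer such peaks. The 3 peaks of Olfr1393 lay at starts of Mgat1, which acts in the making of N-linked glycans, that of Vmn1r233 at the start of Zfp160, those of Olfr1420 at Patl1, an mRNA decay factor, and that of Vmn1r21 on its downstream side at Vopp1. Peaks at the starts of Trim21 and Trim68, tripartite motif genes, served Olfr549 and Olfr550 and Olfr556, Olfr557 and Olfr558. Others lay at Fam183b (Olfr313 and Olfr314), Gm12258 (Olfr311 and Olfr312), Zfp641 (Olfr285) and H2-M3, a gene of the major histocompatibility complex (Olfr98 and Olfr99). Peaks away from a start lay near Trim58 (3434 bp, Olfr323), Ubd (2745 bp, Olfr94), Syde1 (40321 bp, Olfr1357), Tcaf3 (38814 bp, Olfr455) and Smim17 (2405 and 3187 bp, Olfr1344), and 84462 bp from Zim1 beside Olfr1350. The Olfr455 peak lay inside the annotated limits of that gene. The Olfr153 peak on chromosome 2 (chr2:87525850-87526349) overlapped the processed pseudogene Gm13736 and lay 14978 bp from Pramel6, and 61.6% of its words were unique.

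Outside the outermost gene of a cluster lay 54 peaks, at the ends of 21 clusters, and 27 of them overlapped another gene. The first genes of the chromosome 17 cluster, Olfr90 and Olfr91, shared 7 peaks. The one farthest out lay in an exon of Gabbr1, a subunit of the receptor for the inhibitory transmitter GABA. By the limits used for the selection, the others lay in the gap of 10124 bp between this gene and Olfr90. The nearest of them, 120 bp from Olfr90, lay inside the annotated limits of Olfr90. Olfr288, the first gene of a cluster of 9 on chromosome 15, also had 7 peaks, 3 in Ccdc184 and 4 between it and the receptor gene, the nearest at 3345 bp. At the other end of that cluster, Olfr279 had 3 peaks toward Kansl2, a chromatin regulator gene. The peak nearest to Olfr279 lay inside its annotated limits.

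Olfr31, the last of a pair on chromosome 14, had 6 peaks within 16330 to 19870 bp, all at or in Il3ra, the interleukin receptor gene. Olfr522 had 4 peaks, 3 in Sprn, a relative of the prion protein gene that is expressed in brain, and 1 in its neighbour Mtg1, and Olfr1417 had 3 in Stx3, a syntaxin gene of membrane fusion. Olfr1373 and Olfr1371, a pair of genes that formed a cluster, had 2 peaks each, toward Ppp2ca, a phosphatase subunit gene, and Skp1a, a ubiquitin ligase subunit gene. Olfr155 had 2, toward Reck, Olfr412 had 2, toward and in Rap1gap2, and Olfr15 had 2, at and near Zfp174. The peak near Zfp174 lay inside the annotated limits of Olfr15. A single peak at the start of the flanking gene stood by Olfr1416 and Olfr1415 (Ndufa10), Olfr12 (Cops9), Olfr1375 (Zfp354a), Vmn1r32 (Mad2l1) and Vmn2r57 (AI987944).

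Other end peaks lay farther than 1 kb from a gene start. Olfr30 had a peak 477 bp downstream by the limits used for the selection, inside its annotated limits and 1016 bp from Lypd9. The peak of Olfr462 lay in an intron of Epx, eosinophil peroxidase. The peak of Olfr1396 lay inside the annotated limits of Olfr56, another gene of that cluster. Those of Olfr9, Olfr1396 and Olfr459 lay 16476 bp from Mettl7b, 39036 bp from Tgtp2 and 57291 bp from Kel. The single gene Vmn1r1 had a peak 7941 bp from Srp9, a signal recognition particle gene, and the single gene Olfr1402 had a peak 5345 bp upstream, inside the annotated limits of the gene and 118607 bp from Bcl9.

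Genes that shared a peak were common. Of the 138 peaks, 99 had 1 receptor gene within 20 kb, 31 had 2, 7 had 3 and 1, that of Olfr95, had 4. Of the 111 genes, 79 had a single peak. Genes selected only through a peak nearer to another receptor gene included Olfr544 and Olfr684 on chromosome 7, Olfr453 and Olfr437 on chromosome 6, Olfr96 and Olfr97 on chromosome 17, Olfr959 and Olfr150 on chromosome 9, Vmn2r86 on chromosome 10, Olfr287 on chromosome 15 and Olfr1128 on chromosome 2. A peak within 5 kb was found for 25 genes, 21 Olfr and 4 Vmn. Distances not given above, by the limits used for the selection, were 3107 bp for Olfr15, 3161 bp for Olfr279, 4123 bp for Olfr1344, 4601 bp for Olfr750 and 4825 bp for Olfr311.

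The base composition of the peaks was close to that of their surroundings away from starts of other genes, and not at such starts. Away from starts of other genes, the 95 peaks had a median of 46.0% G and C bases (quartiles 41.5% and 50.3%), beside 49.4% for all such peaks. The surrounding 20 kb had 43.7% and 46.6%. In the 31 peaks with receptor genes only, the median was 40.6%, and that of the surroundings 39.5%. At starts of other genes the 43 peaks had 58.8% and their surroundings 44.1%, beside 62.2% and 46.0% for all promoter peaks. The 31 peaks also stood alone, at a median of 48270 bp from the next peak, beside 4339 bp for all peaks away from starts.

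**Figure D5:**
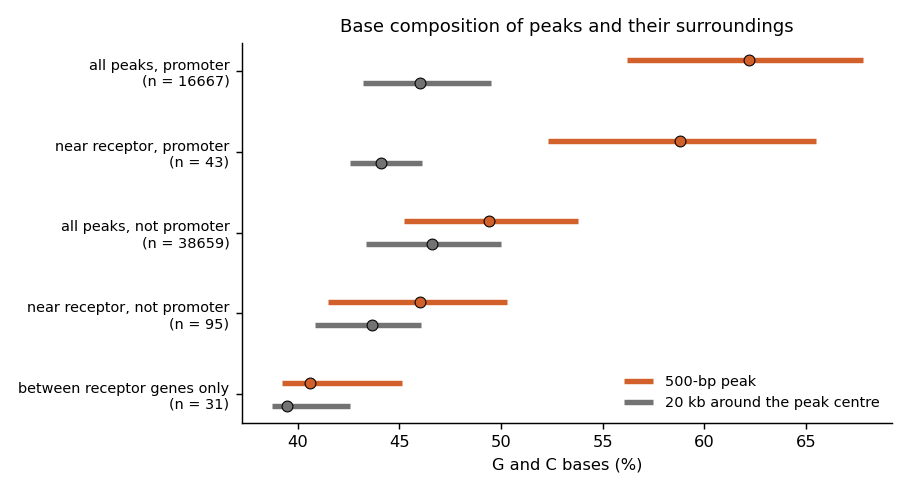
Median (points) and quartiles (bars) of the share of G and C bases (x axis, percent) in the 500-bp peak (orange) and in the 20 kb around its centre (grey), for all peaks and peaks near receptor genes, at starts of other genes or not. The lowest row, peaks with receptor genes only, had medians of 40.6% and 39.5%.

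A CpG ratio, the number of CG dinucleotides over that expected from the C and G content, of at least 0.6 was found in 18 of the 95 peaks away from starts (18.9%), beside 6.24% of all such peaks. Of these 18, those of the Olfr750, Olfr1368, Olfr1367 and Olfr1359 neighbourhoods on chromosomes 14 and 13 made up 11. Of the 31 peaks with receptor genes only, 2 reached this ratio, those of Vmn2r87 and Olfr545. Repeats masked at least 50% of 2 of the 138 peaks, a share of 1.45% beside 1.47% of all peaks. All 32-base words were unique in 89 peaks (64.5%), beside 81.1% of a sample of every 20th peak and the 138.

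The consensus of CTCF, the insulator protein that anchors chromatin loops, was searched on both strands and found in 9 peaks (6.52%), beside 5.25% of all peaks. Away from starts it was found in 8 of 95 peaks (8.42%), beside 6.97%, and in 3 of the 31 with receptor genes only. The 9 matches are shown with 20 bases on each side on the plus strand, the consensus in capitals, named by the nearest receptor gene. In those of Olfr1344 and Olfr957 the consensus read on the plus strand, and in the others on the minus strand.
Vmn1r1 (chr1:182140564-182140615): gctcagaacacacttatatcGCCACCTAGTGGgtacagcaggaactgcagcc
Olfr1393 (chr11:49243956-49244007): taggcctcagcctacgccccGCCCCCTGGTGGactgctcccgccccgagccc
Vmn1r195 (chr13:22284752-22284803): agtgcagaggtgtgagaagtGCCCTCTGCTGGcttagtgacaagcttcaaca
Olfr750 (chr14:51064941-51064992): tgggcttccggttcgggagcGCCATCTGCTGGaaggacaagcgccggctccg
Olfr1513 (chr14:52338831-52338882): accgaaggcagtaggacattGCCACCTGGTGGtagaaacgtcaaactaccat
Olfr283 (chr15:98389994-98390045): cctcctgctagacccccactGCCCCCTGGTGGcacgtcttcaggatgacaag
Olfr155 (chr4:43861315-43861366): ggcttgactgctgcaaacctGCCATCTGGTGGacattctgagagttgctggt
Olfr1344 (chr7:6434731-6434782): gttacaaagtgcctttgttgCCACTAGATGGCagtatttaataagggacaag
Olfr957 (chr9:39509154-39509205): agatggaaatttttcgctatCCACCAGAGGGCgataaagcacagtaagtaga

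The position of the match was measured from the peak centre. That of Vmn1r1 lay 7 bp to the left of the peak centre and that of Olfr957 5 bp to the left, while those of Vmn1r195 (6 bp), Olfr1513 (10 bp), Olfr1344 (10 bp), Olfr283 (14 bp), Olfr155 (38 bp), Olfr1393 (41 bp) and Olfr750 (68 bp) lay to the right. All 9 were within the central 200 bp, as were the matches of 94.9% of all peaks with the consensus. The Vmn1r1 and Olfr155 peaks lay outside a cluster, and those of Olfr1393, Olfr750, Olfr1513 and Olfr1344 in a gap with other genes. Those of Vmn1r195, Olfr283 and Olfr957 lay among receptor genes only. A match is a description of letters and does not show binding.

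Words of factors known from receptor gene regulation in olfactory neurons, and of a factor of DNs, were counted in the same way. TCCCNNGGG, bound by EBF factors, was present in 11 peaks (7.97%) beside 11.5% of all peaks, and away from starts in 5.26% beside 10.2%. TAATTA, a homeodomain word like that bound by Lhx2, was present in 11 peaks (7.97%) beside 7.27% of all, and away from starts in 8.42% beside 8.94%. TGTTTAC, a forkhead word of the kind bound by Foxa factors of DNs, was present in 13 peaks (9.42%) beside 7.22%, and all 13 lay away from starts of other genes (13.7%, beside 8.75%). Both strands were searched in each case. These differences were not tested.

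Genes that act with the receptors were examined in the same way. Of 28 genes of olfactory and vomeronasal signal transduction and receptor gene choice, 25 had a peak by the rule of the selection (89.3%, beside 81.7% of other protein-coding genes). Gnao1, the G protein subunit used with Vmn2r receptors and widely in neurons, had 39 peaks, Gnal 10 and Adcy3, an adenylyl cyclase, 10. Ebf3 had 15 and Bptf, a chromatin remodeller subunit, 14. The genes without one were Cnga2, the ion channel subunit of olfactory transduction, Lhx2, which is needed for receptor choice, and Rtp2, a receptor transport protein. Among other chemosensory receptors, 7 of 15 Taar genes, 2 of 7 Fpr genes, 3 of 3 Tas1r genes and 3 of 35 Tas2r genes had a peak by the same rule. Tas1r1 had 8.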

How the data were processed

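The authors mapped snATAC-seq reads of VTA nuclei to mm10 with cellranger-atac, removed doublets and nuclei of low quality, clustered nuclei and called reproducible peaks over pseudobulk replicates with ArchR, and the submitters' processing notes name the same tools. The deposited list gives a chromosome, start and end for each of 55326 peaks, with starts read as counted from 0 and printed from 1. Depth per peak is unknown, so a gene without a peak is a gene where none was called. For later analyses the authors filtered peaks by the share of nuclei with the peak. Whether the deposited list had passed this filter is not given in the sources used here.

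Receptor gene positions came from the source table of the compartment comparison, other genes and starts from GENCODE M21 (1380 of 1385 receptor genes matched by symbol), and sequence from GRCm38. Other genes were protein-coding genes outside the Olfr, Vmn, Taar, Fpr, Tas1r and Tas2r families. Another 10 predicted or read-through genes that share exon bases with a receptor gene were left out. Genes were named by rule: every gene with a peak within 5 kb, the 5 with the most peaks, those nearest to the limit of 20 kb on either side, the clusters with 3 or more selected genes and the nearest other gene of each peak of these genes, except that of the Olfr65 peak, which is not reported here. Further genes were named to account for every peak and were chosen after their values were seen. Consensus words were searched on both strands, and 32-base words were counted over the whole assembly. The overlap and word searches were tested on simulated data. Members and lists were chosen with earlier results of these data known. No test was run, since 1 pooled list has no replicates. Python 3.11.15, numpy 2.4.6, pandas 2.3.3 and matplotlib 3.10.9 were used.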

Additional observations from a re-analysis of the deposited data

How the results depend on the processing

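The choice of distance set most counts. With 5, 10 and 50 kb on each side in place of 20 kb, 25, 61 and 248 receptor genes had a peak, and 30, 74 and 300 peaks lay near them. A random draw of 0.5 of the peaks left 62 genes and 65 peaks, so that the numbers depend on how many peaks were called. Counting by the peak centre gave 110 genes and gene limits from the annotation 125. Peaks with at least 90% unique words, an alternative chosen after seeing the data, left 92 genes and 119 peaks. With the outer 5 genes taken as the edge, 60 selected genes were edge genes, 14.7% of such genes beside 5.23% of inner genes, and the edge share was above the inner share under each of the 4 definitions tried. Allowing 1 mismatch in the CTCF consensus raised the matches from 9 to 24, beside 15.0% of all peaks. The other alternatives, on promoters and nearest genes, stayed within 1.5 times the reported count. Leaving out a replicate was not possible because both libraries are pooled in the list. No paired analysis was possible because the result comes from no test. The list has no depth per peak, so weak accessibility near other receptor genes was not detectable.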
